A study of Mus musculus with 12 samples.

Results

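The genes described here encode the proteasome of mouse cells, with its activators, its inhibitor and its assembly chaperones. They were the protein-coding genes whose symbol begins with Psma, Psmb, Psmc, Psmd or Psme and a digit, or with Psmg and a digit, or is Psmf1. The rule found 50 genes of the 49315 in the table, of which 21811 were protein-coding. By role they were 8 subunits of the 20S alpha ring, 4 structural subunits of the 20S beta ring, 3 constitutive catalytic subunits, 4 immune or thymic catalytic subunits, 6 ATPases and 11 other subunits of the 19S particle, 3 chaperones of 19S assembly, 4 chaperones of 20S assembly, 5 activators and 1 inhibitor. The remaining gene, Psmc3ip, shares only the prefix and encodes no part of the proteasome. Psma8, the alpha subunit of testis, held 2 counts over the 12 libraries and Psmb11, the catalytic subunit of thymic epithelium, held 22. Neither passed the filter on low counts, so 48 members were tested in every comparison.

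Read counts per gene came from 12 libraries in 4 groups of 3. The groups were group 2 innate lymphoid cells (ILC2s) cultured with IL-33-activated eosinophils, ILC2s cultured alone, IL-33-activated eosinophils cultured with ILC2s, and IL-33-activated eosinophils cultured alone. ILC2s are lymphocytes without antigen receptors, and eosinophils are granulocytes of type 2 immunity. All cells came from C57BL/6 mice whose age the labels do not give. The ILC2s were sorted from lung after depletion of other lineages, expanded with IL-33, IL-25 and further cytokines (IL-2, IL-7), and kept for 48 h with only the last pair. The eosinophils came from blood, as cells that passed columns of anti-B220 and anti-CD90 beads unbound, and spent 24 h in IL-33. Cells of both kinds then spent 24 h in medium without cytokines, and cocultured ILC2s and eosinophils were parted on a flow cytometer. Tissue of origin and earlier cytokines therefore differ between the cell types in every comparison between them. Whether cells cultured alone also passed the cytometer is not stated in the labels. Sorting therefore cannot be told apart from coculture where cocultured cells are compared with cells alone. Nothing in the labels says whether a group's libraries came from different cultures or mice. The p-values therefore describe only how these libraries scatter, which may be technical scatter.

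Library totals were 16769929 to 22928961 counts, and a floor of 3 counts was 0.131 to 0.179 per 1000000 counts of a library. Levels are given as CPM, counts per 1000000 counts, with library sizes scaled by TMM over all 12 libraries. The defining markers matched the labels. The summed level of 11 eosinophil markers was 2.39 to 3.40 CPM in ILC2s with eosinophils and 2.44 to 2.97 CPM in ILC2s alone, against 12080 to 12400 CPM in eosinophils with ILC2s and 8695 to 9633 CPM in eosinophils alone, and Prg3 was at 0 counts in both ILC2 groups. The summed level of 10 ILC2 markers was 6848 to 7300 CPM in ILC2s with eosinophils, 7028 to 7053 CPM in ILC2s alone, 633 to 663 CPM in eosinophils with ILC2s and 976 to 1009 CPM in eosinophils alone. Single markers differed between the ILC2 groups in both directions. Il7r averaged 239 CPM in ILC2s with eosinophils and 1394 CPM in ILC2s alone, and Il2ra 1393 and 313 CPM. In eosinophils most of the ILC2 marker sum was Il1rl1, the IL-33 receptor gene, at 638.5 CPM with ILC2s and 976.5 CPM alone, while Gata3 averaged 0.315 and 1.46 CPM. Of other cells, 5 basophil and mast cell markers summed to 23.2 to 25.6 CPM in eosinophils with ILC2s and 46.5 to 55.0 CPM in eosinophils alone, with none at 0 counts in either group. Hdc made up most of this sum, at 16.7 and 40.1 CPM. Ms4a2 averaged 4.07 and 3.36 CPM, Fcer1a 1.96 and 4.44, Cpa3 1.15 and 1.21, and Mcpt8 0.095 and 0.30. A further 5 neutrophil markers summed to 4.49 to 6.30 CPM in eosinophils with ILC2s, where Elane was at 0 counts, and 9.97 to 16.8 CPM in eosinophils alone. The same 5 summed to 1.68 to 5.44 CPM in ILC2s with eosinophils and at most 0.0900 CPM in ILC2s alone. In those cocultured ILC2s Mpo averaged 2.42 CPM and Elane 0.725 CPM, whereas S100a8 and S100a9 were at 0 counts and Ly6g averaged 0.0137 CPM. In eosinophils with ILC2s and alone, Mpo averaged 0.117 and 0.175 CPM, against 2.39 and 6.08 CPM for S100a9. Markers of monocytes and macrophages (5 genes, none at 0 counts) summed to 2107 to 2147 CPM in eosinophils with ILC2s and 2259 to 2388 CPM in eosinophils alone, and 4 B cell markers to 16.3 to 17.9 and 12.4 to 15.7 CPM in the same groups. Adgre1 and Csf1r made up nearly all of the monocyte and macrophage sum, whereas C1qa averaged 0.0377 CPM in eosinophils with ILC2s and 0.255 CPM in eosinophils alone, and Mertk 0.373 and 0.168 CPM. Cd79a made up most of the B cell sum, at 16.6 and 13.3 CPM. In the ILC2 groups the basophil and mast cell, monocyte and macrophage, and B cell sums were at most 1.83, 1.64 and 1.68 CPM. Another 4 markers, of dendritic cells, summed to 20.6 to 27.9 CPM in ILC2s with eosinophils and 18.8 to 21.3 CPM in ILC2s alone. Xcr1 made up most, at 22.8 and 19.1 CPM. These 4 summed to 2.16 to 3.46 CPM in eosinophils. T cell markers (4 genes) summed to 4.37 to 5.20 CPM in ILC2s and 1.65 to 4.34 CPM in eosinophils. The part of these cells in the results below was not tested.

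The proteasome degrades proteins that carry ubiquitin chains. Its 20S core is a barrel of outer alpha rings and inner beta rings, and the beta rings hold the peptidases. In immune cells, and after interferon, the catalytic subunits Psmb9, Psmb10 and Psmb8 can take the places of Psmb6, Psmb7 and Psmb5, which changes the peptides available to MHC class I. The 19S particle caps the core: its ATPases unfold substrates and its other subunits bind and remove ubiquitin. The transcription factor encoded by Nfe2l1 raises many proteasome genes when proteasome activity falls, and binds the antioxidant response element in their promoters.

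The promoters of 5 catalytic genes are shown because they are the genes in which immune subunits replace constitutive ones. The promoter of Psmb7 was not used here, so both partners are shown for Psmb5 and Psmb6 only. Each window runs from 250 bases before to 50 bases after the RefSeq start on build GRCm38.p6, in the direction of transcription. For Psmb5, Psmb8, Psmb9 and Psmb10 that start lies inside the gene as GENCODE M21 bounds it. Psmb5 (chr14:54617946-54618245, minus strand) and Psmb6 (chr11:70525107-70525406, plus strand) are constitutive. Psmb8 (chr17:34197945-34198244, plus strand), Psmb9 (chr17:34187281-34187580, minus strand) and Psmb10 (chr8:105938343-105938642, minus strand) are immune. Capitals mark matches to 4 motifs searched on both strands, an antioxidant response element (TGACNNNGC), the interferon stimulated response element, a gamma activated site (TTCNNNGAA) and a CCAAT box (CCAAT).
Psmb5: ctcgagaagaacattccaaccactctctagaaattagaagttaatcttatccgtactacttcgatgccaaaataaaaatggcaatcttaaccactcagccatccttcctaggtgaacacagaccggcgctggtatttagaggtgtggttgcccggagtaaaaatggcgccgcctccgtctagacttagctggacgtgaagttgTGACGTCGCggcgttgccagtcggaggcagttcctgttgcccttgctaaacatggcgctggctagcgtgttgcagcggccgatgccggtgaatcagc
Psmb6: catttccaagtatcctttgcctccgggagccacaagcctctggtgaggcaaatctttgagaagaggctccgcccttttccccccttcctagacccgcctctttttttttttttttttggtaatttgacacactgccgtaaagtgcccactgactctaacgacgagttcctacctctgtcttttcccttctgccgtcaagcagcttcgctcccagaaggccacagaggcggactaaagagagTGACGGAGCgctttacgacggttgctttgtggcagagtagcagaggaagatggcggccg
Psmb8: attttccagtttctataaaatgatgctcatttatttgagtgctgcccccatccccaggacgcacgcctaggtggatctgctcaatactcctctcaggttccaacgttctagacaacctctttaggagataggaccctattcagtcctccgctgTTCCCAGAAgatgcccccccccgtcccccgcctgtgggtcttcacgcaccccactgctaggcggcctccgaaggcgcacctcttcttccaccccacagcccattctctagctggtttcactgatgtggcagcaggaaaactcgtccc
Psmb9: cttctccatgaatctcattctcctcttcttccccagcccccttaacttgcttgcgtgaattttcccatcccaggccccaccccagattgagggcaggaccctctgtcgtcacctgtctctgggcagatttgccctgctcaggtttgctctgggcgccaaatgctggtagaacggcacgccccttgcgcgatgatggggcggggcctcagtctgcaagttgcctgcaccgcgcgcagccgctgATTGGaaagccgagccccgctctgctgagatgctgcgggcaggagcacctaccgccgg
Psmb10: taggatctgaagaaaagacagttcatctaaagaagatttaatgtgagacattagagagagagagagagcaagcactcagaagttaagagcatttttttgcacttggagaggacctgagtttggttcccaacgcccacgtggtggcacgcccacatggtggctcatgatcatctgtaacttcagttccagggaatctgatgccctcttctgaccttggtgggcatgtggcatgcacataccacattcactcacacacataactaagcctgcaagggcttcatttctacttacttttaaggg
The antioxidant response element stood at base -47 of Psmb5, as TGACGTCGC, and at base -9 of Psmb6, as TGACGGAGC. The gamma activated site stood at base -97 of Psmb8, as TTCCCAGAA, and the CCAAT box at base -8 of Psmb9 in reverse, as ATTGG. None of the 4 motifs was in the Psmb10 window. The RefSeq table held 45 promoters of 42 member genes among 32851 promoters of 300 bases. The antioxidant response element was in 13.3% of the member promoters and in 12.4% of all promoters. Its 6 member genes were Psmb5, Psmb6, Psmc6, Psmd9, Psmd12 and Psme4. The interferon stimulated response element was in 11.1% of member promoters and 3.44% of all, in Psmb3, Psmd4, Psmd9, Psme1 and Psmg4. The gamma activated site was in 6.67% of member promoters and 8.30% of all, and the CCAAT box in 33.3% and 37.4%. A match describes these letters only.

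The first comparison set ILC2s cultured with eosinophils against ILC2s cultured alone. Transcripts of nearly every proteasome gene were more abundant in ILC2s cultured with eosinophils than in ILC2s cultured alone. Of 48 members tested, 43 were higher at an edgeR adjusted p under 0.05, 1 was lower (Psme2b) and 4 did not pass (Psmd4, Psmb10, Psme4 and Psmf1). Over all 14438 genes tested, 36.8% were higher and 35.6% were lower, 72.4% in all. The median log2 fold change was 0.70 over the members and 0.003 over all genes. The lowest library of ILC2s with eosinophils lay above the highest library of ILC2s alone for 42 members, against 38.4% of all genes, and the order was reversed for 1 member, against 36.4% of all genes. In bulk RNA, fewer cells of a kind and less RNA per cell cannot be told apart. Scaling by library totals alone lowered the median log2 fold change of all genes by 0.156, and 40 members were then higher and 5 lower, beside 4385 and 6330 of all genes, against 5315 and 5139 with TMM scaling.

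**Figure D1:**
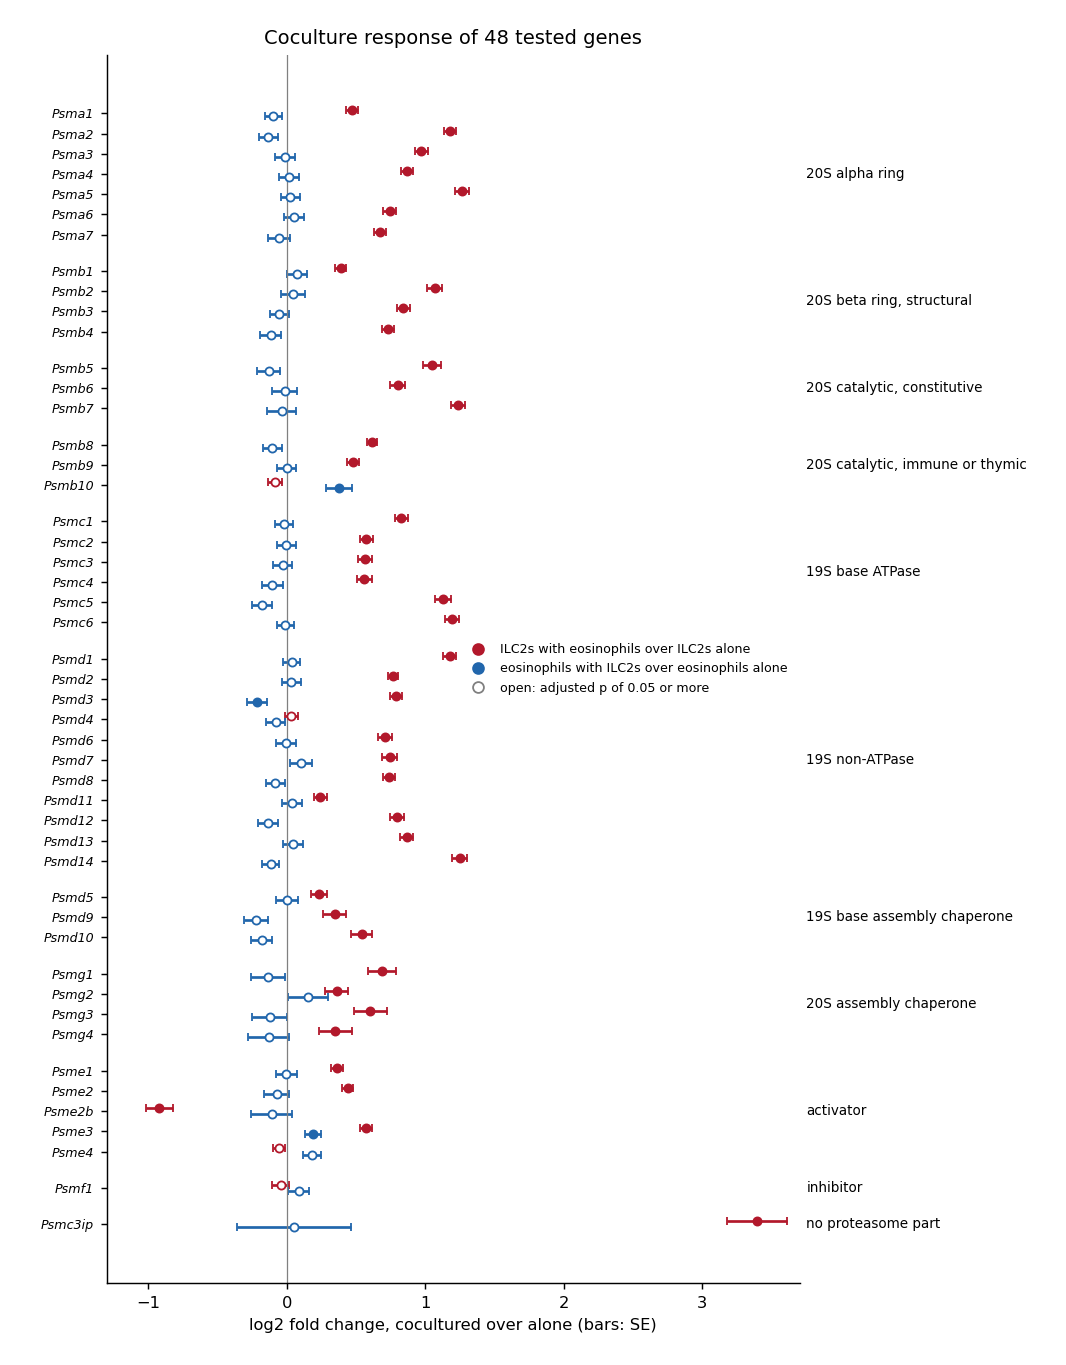
Log2 fold change (horizontal axis, bars ± SE) of the 48 tested members in rows grouped by role, for ILC2s with eosinophils over ILC2s alone (red) and eosinophils with ILC2s over eosinophils alone (blue), open symbols marking an adjusted p of 0.05 or more. The red symbols lie right of 0 for 43 called members and the blue symbols stay between -0.22 and 0.38, with 3 filled.

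Members together took 0.501%, 0.494% and 0.494% of all counts in ILC2s with eosinophils, against 0.358%, 0.347% and 0.349% in ILC2s alone. In eosinophils the share was 0.341%, 0.319% and 0.334% with ILC2s, against 0.326%, 0.304% and 0.341% alone. The ILC2 groups did not overlap, whereas the eosinophil groups did. With TMM-scaled library sizes the mean shares were 0.445%, 0.281%, 0.388% and 0.386% for ILC2s with eosinophils, ILC2s alone, eosinophils with ILC2s and eosinophils alone.

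Among the peptidases of the core, the 3 constitutive subunits were higher in ILC2s with eosinophils, each by a larger log2 fold change than any of the 3 immune subunits, although genes were not tested against each other. Psmb7, the trypsin-like subunit, had 94.6, 96.4 and 102 CPM in ILC2s with eosinophils, against 42.7, 42.2 and 39.3 CPM in ILC2s alone (log2 fold change 1.23 ± 0.051, edgeR adjusted p = 7.3e-19). Psmb5, the chymotrypsin-like subunit, had 70.4, 68.8 and 64.8 CPM in ILC2s with eosinophils, against 37.0, 30.3 and 31.0 CPM in ILC2s alone (1.05 ± 0.063, adjusted p = 6.5e-15). Psmb6, the caspase-like subunit, had 74.9, 70.0 and 71.8 CPM in ILC2s with eosinophils, against 43.5, 38.9 and 41.3 CPM in ILC2s alone (0.80 ± 0.053, adjusted p = 6.8e-14). Every library of ILC2s with eosinophils lay above every library of ILC2s alone for these 3 genes. In eosinophils the same 3 genes overlapped between groups. Psmb7 had 70.8, 59.9 and 72.0 CPM in eosinophils with ILC2s, against 67.5, 56.9 and 79.4 CPM in eosinophils alone. Psmb5 had 105, 93.7 and 96.6 CPM in eosinophils with ILC2s, against 101, 95.0 and 121 CPM in eosinophils alone. Psmb6 had 77.2, 70.7 and 78.8 CPM in eosinophils with ILC2s, against 71.4, 65.6 and 87.7 CPM in eosinophils alone. The eosinophil log2 fold changes were -0.036 ± 0.10, -0.13 ± 0.083 and -0.015 ± 0.092 for Psmb7, Psmb5 and Psmb6, and none passed the test.

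The immune subunits split. Psmb8, which replaces Psmb5, had 307, 311 and 313 CPM in ILC2s with eosinophils, against 209.6, 199 and 196 CPM in ILC2s alone (0.61 ± 0.038, adjusted p = 1.5e-14). Psmb9, which replaces Psmb6, had 119, 123 and 122 CPM in ILC2s with eosinophils, against 88.0, 87.0 and 85.0 CPM in ILC2s alone (0.48 ± 0.041, adjusted p = 1.7e-11). Psmb10, which replaces Psmb7, had 70.0, 73.4 and 75.1 CPM in ILC2s with eosinophils, against 81.2, 72.2 and 77.0 CPM in ILC2s alone (-0.085 ± 0.049, adjusted p = 0.12). Groups did not overlap for Psmb8 and Psmb9 and did for Psmb10, which passed as lower without replicate 2 of ILC2s alone (adjusted p = 0.0322) and with library totals (adjusted p = 5.52e-05). In eosinophils Psmb10 was the member with the largest rise. It had 94.7, 77.9 and 87.7 CPM in eosinophils with ILC2s, against 63.7, 57.4 and 75.3 CPM in eosinophils alone (0.38 ± 0.095, adjusted p = 0.01), without overlap. Without replicate 1 or replicate 3 of eosinophils with ILC2s the adjusted p was 0.0595 or 0.0521. Psmb8 had 133, 128 and 129 CPM in eosinophils with ILC2s, against 137, 123 and 151 CPM in eosinophils alone, and Psmb9 had 73.2, 68.9 and 67.4 CPM in eosinophils with ILC2s, against 69.9, 62.5 and 73.2 CPM in eosinophils alone. Both overlapped, at log2 fold changes of -0.10 and -0.0014, and did not pass.

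**Figure D2:**
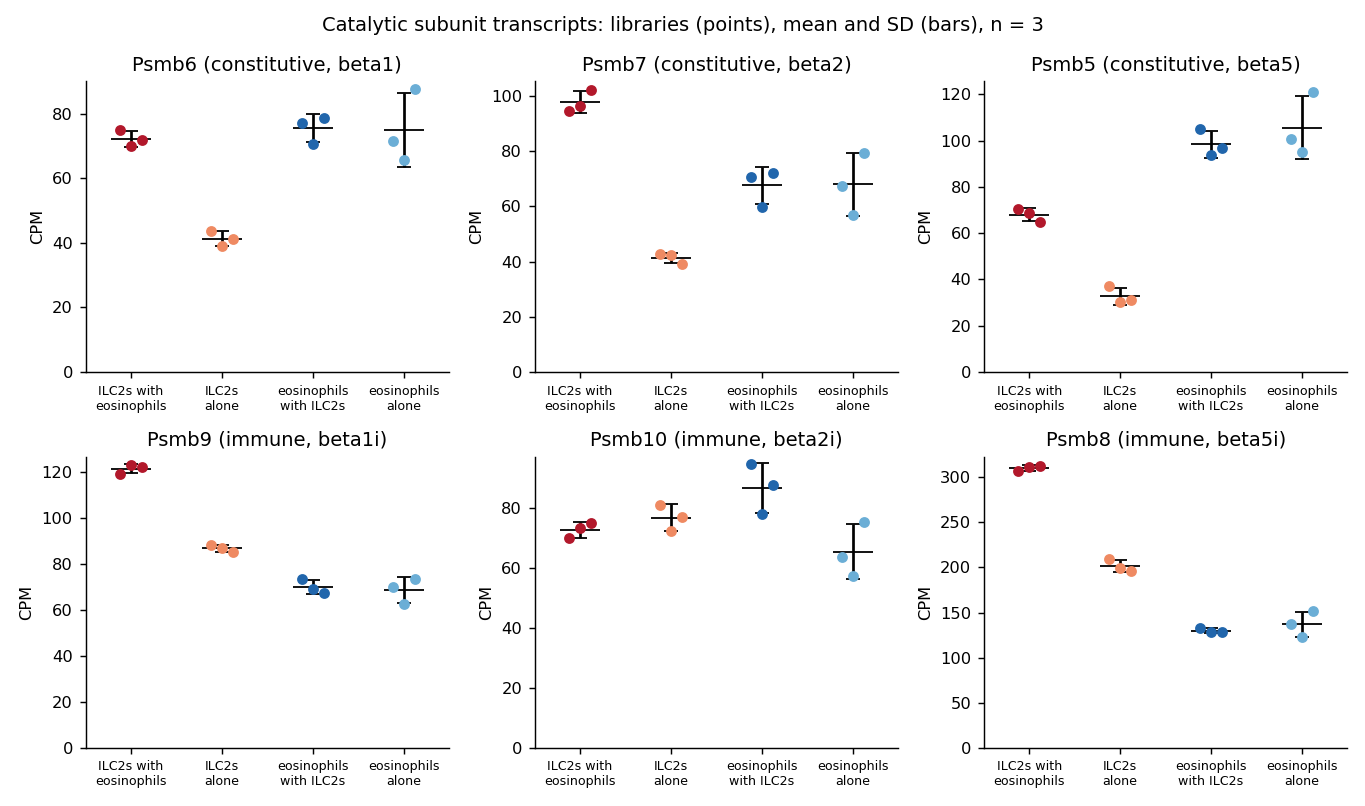
CPM (vertical axes from 0, TMM scaled) of the 3 constitutive catalytic genes above and the immune gene that replaces each below, with 1 point per library, the mean as a line and the SD as bars (n = 3). All 3 constitutive genes, Psmb9 and Psmb8 stand higher in ILC2s with eosinophils than in ILC2s alone, whereas Psmb10 overlaps there and stands higher in eosinophils with ILC2s than in eosinophils alone.

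To set replacing and replaced subunits side by side within a library, counts were divided by the length of each gene's principal transcript and the immune gene given as a share of its pair, which does not depend on scaling between libraries. Over all 6 genes the immune share was 56.5%, 57.7% and 57.6% in ILC2s with eosinophils, against 65.9%, 67.0% and 66.8% in ILC2s alone. It was 43.1%, 43.6% and 42.2% in eosinophils with ILC2s, against 41.5%, 41.1% and 39.5% in eosinophils alone. Each coculture group lay apart from its control, with a difference of -9.29 percentage points in ILC2s and 2.28 in eosinophils. The widest gap was in the pair of Psmb10 and Psmb7, although Psmb7 overlaps Nek6 on the opposite strand over 11.8% of its exon length. The part of Nek6 reads in this share was not tested. Psmb10 made up 39.7% ± 0.445 of its pair in ILC2s with eosinophils and 62.1% ± 1.68 in ILC2s alone, and 53.2% ± 1.20 in eosinophils with ILC2s and 46.1% ± 0.921 in eosinophils alone (SD, n = 3 each). Psmb8 made up 71.6% ± 1.05 of its pair in ILC2s with eosinophils and 77.3% ± 1.36 in ILC2s alone, and 42.2% ± 0.937 in eosinophils with ILC2s and 41.8% ± 1.03 in eosinophils alone. Psmb9 made up 49.8% ± 1.27 of its pair in ILC2s with eosinophils and 55.4% ± 1.32 in ILC2s alone, and 35.3% ± 1.56 in eosinophils with ILC2s and 35.2% ± 1.94 in eosinophils alone. The last 2 pairs overlapped between the eosinophil groups and not between the ILC2 groups. By the length of all annotated exons in place of the principal transcript, the levels moved, with Psmb10 at 59.9% of its pair in ILC2s with eosinophils, 78.8% in ILC2s alone, 72.0% in eosinophils with ILC2s and 66.0% in eosinophils alone, while which groups stood apart, and in which direction, did not. No test was made of these shares, since 3 libraries against 3 cannot give an exact two-sided permutation p below 0.1.

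**Figure D3:**
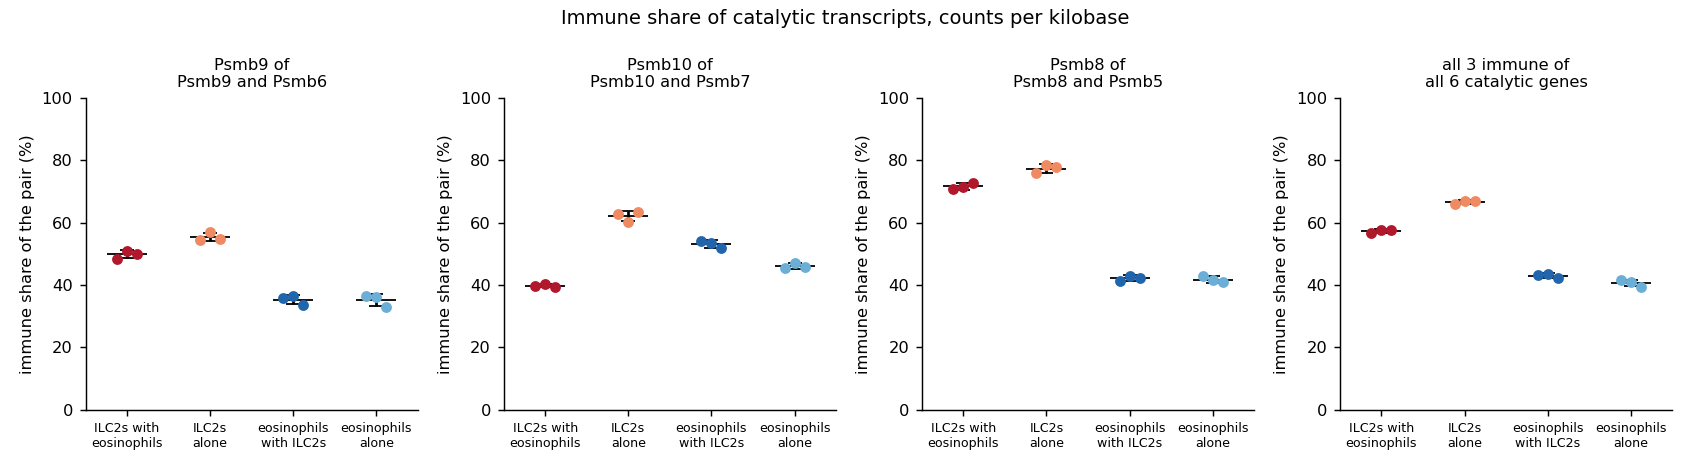
Percent of catalytic transcripts, per kilobase, that came from the immune gene (vertical axes, 0 to 100) in each pair and over all 6 genes, with 1 point per library and the mean and SD in black (n = 3). In the second panel the share of Psmb10 is near 40% in ILC2s with eosinophils and near 62% in ILC2s alone, a wider gap than in the other panels.

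The rest of the 20S core also rose in ILC2s with eosinophils. Its log2 fold changes ran from below to above those of the immune subunits Psmb8 (0.61) and Psmb9 (0.48). All 7 tested alpha subunits, which form the gate of the barrel, and all 4 structural beta subunits were higher in ILC2s with eosinophils, with median log2 fold changes of 0.87 and 0.79. Psma5 had 88.7, 86.3 and 88.0 CPM in ILC2s with eosinophils, against 37.9, 34.8 and 36.4 CPM in ILC2s alone (1.26 ± 0.050, adjusted p = 3.7e-19). Psma2 had 125, 132 and 132 CPM in ILC2s with eosinophils, against 56.4, 54.6 and 59.5 CPM in ILC2s alone (1.18 ± 0.045). These 2 had the largest rises of the alpha ring, and Psma1 the smallest, with 132, 139 and 138 CPM in ILC2s with eosinophils, against 102, 92.0 and 100.1 CPM in ILC2s alone (0.47 ± 0.043). Psma3, Psma4, Psma6 and Psma7 lay between them at log2 fold changes of 0.97, 0.87, 0.74 and 0.67. Among the structural beta subunits, Psmb2 had 67.5, 64.8 and 62.1 CPM in ILC2s with eosinophils, against 30.5, 30.9 and 30.9 CPM in ILC2s alone (1.07 ± 0.056). Psmb3, Psmb4 and Psmb1 changed by 0.84, 0.73 and 0.39 on the log2 scale. No library of ILC2s with eosinophils overlapped ILC2s alone in any of these 11 genes.

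The 20S rings are built with the help of the chaperones Psmg1 to Psmg4, which guide the alpha ring, and of Pomp, which matures the beta ring. All 4 Psmg genes were higher in ILC2s with eosinophils, at log2 fold changes of 0.69 ± 0.10 for Psmg1, 0.60 ± 0.12 for Psmg3, 0.36 ± 0.084 for Psmg2 and 0.35 ± 0.12 for Psmg4. Psmg1 had 15.3, 15.5 and 16.5 CPM in ILC2s with eosinophils, against 9.69, 8.69 and 10.7 CPM in ILC2s alone, without overlap. Psmg4 had 11.6, 10.4 and 12.2 CPM in ILC2s with eosinophils, against 8.34, 7.65 and 10.4 CPM in ILC2s alone. Its groups overlapped, and its adjusted p of 0.0092 became 0.0664 without replicate 2 of ILC2s alone and 0.135 with library totals.

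In the 19S particle, all 6 ATPases and 10 of 11 other subunits were higher in ILC2s with eosinophils, with medians of 0.70 and 0.77. Psmc6 had 121, 121 and 125 CPM in ILC2s with eosinophils, against 51.2, 58.7 and 49.9 CPM in ILC2s alone (1.19 ± 0.051, adjusted p = 2.2e-18), and Psmc5 had 76.3, 73.6 and 75.6 CPM in ILC2s with eosinophils, against 34.9, 30.7 and 36.7 CPM in ILC2s alone (1.13 ± 0.058). The other ATPase genes changed by 0.83 (Psmc1), 0.57 (Psmc2), 0.56 (Psmc3) and 0.56 (Psmc4) on the log2 scale. Psmd14, the deubiquitinase that cuts chains from substrates, had 70.1, 69.9 and 72.0 CPM in ILC2s with eosinophils, against 28.2, 29.0 and 31.3 CPM in ILC2s alone (1.25 ± 0.056, adjusted p = 5.8e-18). Psmd1, a scaffold of the base, had 113, 114 and 107 CPM in ILC2s with eosinophils, against 52.4, 46.3 and 48.7 CPM in ILC2s alone (1.17 ± 0.049). The groups did not overlap for any of these 4 genes. Psmd4, a ubiquitin receptor, did not share the rise. It had 80.6, 81.6 and 83.6 CPM in ILC2s with eosinophils, against 85.1, 76.4 and 77.6 CPM in ILC2s alone (0.033 ± 0.047, adjusted p = 0.54), with overlapping groups, and with library totals it passed as lower (-0.12). Psmd11, a lid subunit, rose least of the 10 that passed, with 71.5, 66.9 and 72.7 CPM in ILC2s with eosinophils, against 59.3, 56.6 and 61.3 CPM in ILC2s alone (0.24 ± 0.050), and no longer passed with library totals. The scaffold Psmd2 (0.77) and the lid subunits Psmd3 (0.79), Psmd6 (0.71), Psmd7 (0.74), Psmd8 (0.74), Psmd12 (0.79) and Psmd13 (0.87) lay close together in log2 fold change. The 3 chaperones that assemble the ATPase ring passed as higher with smaller changes, 0.54 ± 0.077 for Psmd10, 0.34 ± 0.084 for Psmd9 and 0.23 ± 0.060 for Psmd5. With library totals Psmd5 no longer passed.

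The activators did not move as a block. Psme1 and Psme2 form the interferon-inducible PA28 cap, and both were higher in ILC2s with eosinophils. Psme1 had 174, 172 and 171 CPM in ILC2s with eosinophils, against 144, 123 and 133 CPM in ILC2s alone (0.36 ± 0.044, adjusted p = 1.8e-08), and Psme2 had 114, 110.5 and 109 CPM in ILC2s with eosinophils, against 83.0, 78.5 and 82.7 CPM in ILC2s alone (0.44 ± 0.042). Psme3, the nuclear PA28 subunit, had 135, 123 and 126 CPM in ILC2s with eosinophils, against 85.8, 84.4 and 86.2 CPM in ILC2s alone (0.57 ± 0.043, adjusted p = 8.9e-13). The groups of these 3 genes stood apart. Psme4, the PA200 activator, had 90.5, 90.9 and 84.7 CPM in ILC2s with eosinophils, against 91.1, 93.3 and 90.2 CPM in ILC2s alone (-0.054 ± 0.044). Psmf1, the inhibitor PI31, had 38.6, 38.5 and 37.0 CPM in ILC2s with eosinophils, against 40.5, 41.2 and 35.5 CPM in ILC2s alone (-0.044 ± 0.064). Both overlapped and neither passed, although Psme4 (-0.21) and Psmf1 (-0.20) passed as lower with library totals.

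Psme2b was the lower member. It had 10.8, 11.3 and 12.8 CPM in ILC2s with eosinophils, against 22.9, 24.3 and 18.9 CPM in ILC2s alone (-0.92 ± 0.099, adjusted p = 2.3e-09), without overlap. Psme2b (chr11:48945354-48946190, minus strand, GRCm38) is a copy of Psme2 in mouse, so its reads may be shared, and its exon overlaps 9930111J21Rik1 on the same strand over 4.9% of its length. The overlapping gene was also lower (-1.70 ± 0.077), so the value of Psme2b is uncertain. Psmc3ip, the gene with the prefix but no proteasome role, encodes a partner of the recombinases of meiosis and DNA repair. It had 6.76, 6.87 and 6.93 CPM in ILC2s with eosinophils, against 0.719, 0.765 and 0.488 CPM in ILC2s alone (3.39 ± 0.21, adjusted p = 2.1e-14), the largest rise in the family by symbol and not one of the proteasome. In eosinophils it had 1.54, 0.843 and 0.796 CPM with ILC2s, against 1.07, 1.23 and 0.680 CPM alone, with overlap.

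The second comparison set eosinophils cultured with ILC2s against eosinophils cultured alone. Few proteasome transcripts differed. Of 48 members tested, 2 were higher (Psmb10 and Psme3), 1 was lower (Psmd3) and 45 did not pass, where 11.4% of all 13109 genes were higher and 13.5% lower, 24.9% in all. The members' counts were below this background in both directions. With library totals 3 members were higher and 0 lower, beside 2114 and 1532 of all genes. The median log2 fold change was -0.018 over the members and 0.004 over all genes. Groups did not overlap for 4 members higher with ILC2s, against 22.2% of all genes, and for 4 members lower, against 17.8%. Psme3 had 95.2, 98.8 and 95.6 CPM in eosinophils with ILC2s, against 81.9, 80.8 and 85.9 CPM in eosinophils alone (0.19 ± 0.059, adjusted p = 0.031). Psmd3, a lid subunit, had 82.9, 84.7 and 87.6 CPM in eosinophils with ILC2s, against 94.5, 89.0 and 107 CPM in eosinophils alone (-0.22 ± 0.071, adjusted p = 0.04). Both stood apart between groups by small margins, and both lost the call without the filter on low counts. Psmd3 lost it with library totals and without any 1 library other than replicate 2 of eosinophils alone (adjusted p 0.0829 to 0.147). Psme3 lost it without any 1 library other than replicate 3 of eosinophils alone (adjusted p 0.055 to 0.127). Psme4 had 122, 132 and 125 CPM in eosinophils with ILC2s, against 104, 116 and 106 CPM in eosinophils alone (0.18 ± 0.066, adjusted p = 0.058), also without overlap, and passed when all 12 libraries shared the fit (adjusted p = 0.00564) and with library totals (adjusted p = 0.0164). Without replicate 2 of eosinophils alone, Psme4 passed as higher (adjusted p = 0.00925) and Psma2 (0.0204) and Psmc5 (0.0194) passed as lower. Psmd9 (-0.22), Psmd10 (-0.18) and Psmd14 (-0.12) did not overlap in the lower direction, and Psmf1 (0.087) in the higher, with adjusted p-values of 0.078, 0.1, 0.21 and 0.47. The alpha ring lay between -0.13 (Psma2) and 0.051 (Psma6), and the ATPases between -0.18 (Psmc5) and -0.0037 (Psmc2).

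The responses of the 2 cell types were then set against each other over all 12 libraries, as the ILC2 log2 fold change minus the eosinophil one. The difference was positive for 39 members and negative for 3 at an adjusted p under 0.05, and 6 did not pass, where 26.8% of all 15745 genes had a positive and 24.8% a negative difference, 51.5% in all. With library totals 36 members had a positive and 4 a negative difference, and over all genes 3357 were positive and 5112 negative, against 4215 and 3899 with TMM scaling. The median was 0.70 over the members and 0.013 over all genes. It was positive for all 7 alpha subunits, all 4 structural beta subunits, all 3 constitutive peptidases and all 6 ATPases. The largest in the core and cap were Psmd14 (1.34 ± 0.084, adjusted p = 2.8e-12), Psma2 (1.29 ± 0.087), Psmc5 (1.29 ± 0.099) and Psmb7 (1.25 ± 0.12). The 3 negative differences were Psme2b (-0.83 ± 0.18), Psmb10 (-0.48 ± 0.12, adjusted p = 0.0011) and Psme4 (-0.26 ± 0.079, adjusted p = 0.0079). Psmb8 and Psmb9 thus differed from Psmb10 in the sign of this term, at 0.70 ± 0.085 and 0.46 ± 0.084. Psmd4 (0.091), Psmf1 (-0.15), Psmd5 (0.21), Psmd11 (0.19), Psmg2 (0.19) and Psmg4 (0.47) did not pass.

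Between cell types the balance of the members depended on culture and on scaling. Cultured alone, ILC2s had lower levels than eosinophils for 35 members and higher levels for 6, where 40.8% of all 14525 genes were higher and 39.9% lower, 80.7% in all. The median log2 fold change was -0.55 over the members and 0.027 over all genes. Groups did not overlap for 5 members higher in ILC2s alone, against 41.7% of genes, and 35 lower, against 40.7%. With library totals the median over all genes shifted by 0.57, and 20 members were higher and 16 lower, beside 8587 and 3664 of all genes. The 6 higher members were Psme2b, Psmg2, Psmb8, Psmf1, Psmb9 and Psmb10. Psmb8 had 209.6, 199 and 196 CPM in ILC2s alone, against 137, 123 and 151 CPM in eosinophils alone (0.57 ± 0.069, adjusted p = 2.3e-06). Psmb5, which it replaces, had 37.0, 30.3 and 31.0 CPM in ILC2s alone, against 101, 95.0 and 121 CPM in eosinophils alone (-1.68 ± 0.093, adjusted p = 2.4e-10). Psmb8 and Psmb5 stood apart between these groups in opposite directions, and both directions held with library totals. Psmb10 (0.24 ± 0.084) overlapped between ILC2s alone and eosinophils alone and no longer passed without replicate 1 of ILC2s alone (adjusted p = 0.0676) or without replicate 1 (0.0881) or replicate 2 (0.0915) of eosinophils alone. Psmg2, an alpha ring chaperone, had 16.4, 19.8 and 18.6 CPM in ILC2s alone, against 9.35, 8.62 and 8.60 CPM in eosinophils alone (1.05 ± 0.12).

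In coculture more members were higher than lower in ILC2s. Set against eosinophils with ILC2s, ILC2s with eosinophils were higher for 24 members and lower for 9, with 15 not passing, where 43.6% of all 14634 genes were higher and 40.5% lower, 84.0% in all. By these calls, with TMM scaling, the share of members that were higher was only a little above that of all genes. The share that were lower was well below that of all genes. The median log2 fold change was 0.15 over the members and 0.050 over all genes. Groups did not overlap for 30 members higher in ILC2s with eosinophils, against 44.3% of genes, and 10 lower, against 40.5%. With library totals, which moved the median of all genes by 0.396, 42 members were higher and 3 lower, beside 8177 and 4247 of all genes. The same libraries alone and in coculture enter the responses above, so these are the same measurements in another order. Psmb8 had the largest difference of the core, 1.25 ± 0.047 (adjusted p = 2.3e-20), and Psmb9 followed at 0.79 ± 0.053. Psmb5 remained lower in ILC2s with eosinophils than in eosinophils with ILC2s (-0.54 ± 0.057, adjusted p = 7.0e-10), whereas Psmb7 was higher (0.53 ± 0.062). Psmb10 was lower in ILC2s with eosinophils by TMM scaling (-0.26 ± 0.062), but higher with library totals (0.14). Psmd4 (-0.56 ± 0.052) and Psme4 (-0.52 ± 0.052) were also lower.

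**Figure D4:**
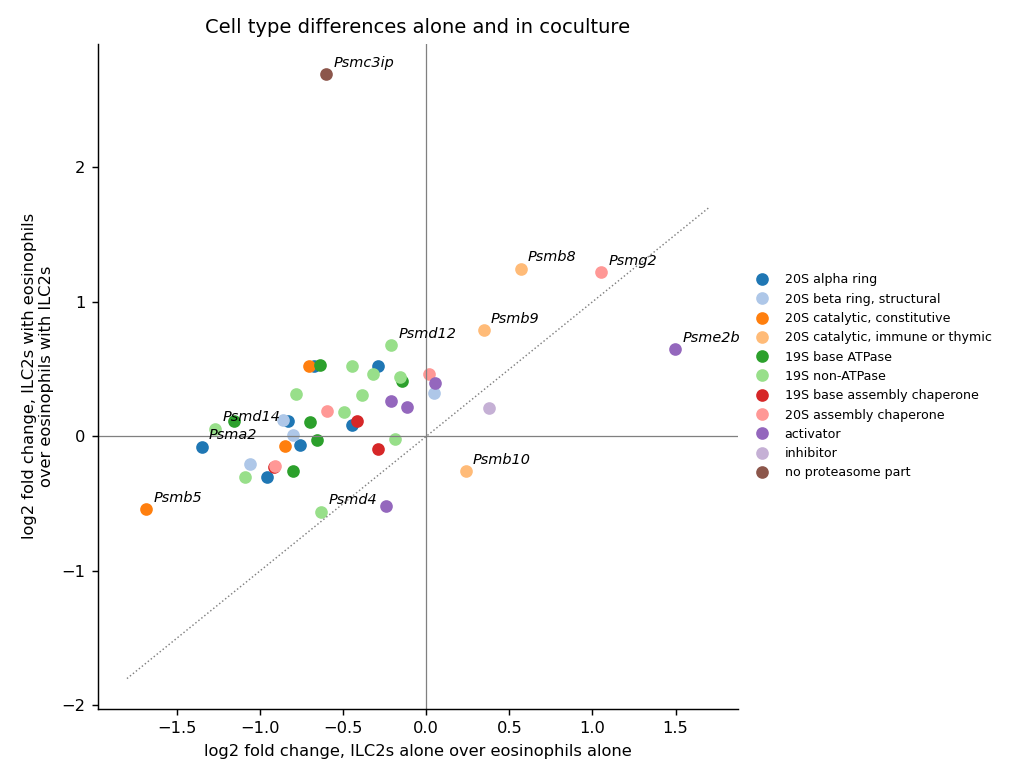
Log2 fold change of ILC2s over eosinophils for the 48 tested members, cultured alone (horizontal axis) and cocultured (vertical axis), colored by role, with equality as a dotted line and TMM scaling on both axes. Most points lie above the line, Psmb8, Psmb9, Psmg2 and Psme2b are positive on both axes and Psmb10 is below 0 only in coculture (with library totals it is above 0 there too).

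Levels between genes can be compared only per length, and the order turned on the length used. On CPM per kilobase of principal transcript, Psmb8 ranked highest of the 50 members in both ILC2 groups, at 191 ± 1.85 in ILC2s with eosinophils and 124 ± 4.32 in ILC2s alone, and 11th in both eosinophil groups, at 79.8 ± 1.60 with ILC2s and 84.1 ± 8.76 alone. Psma7 and Psmb3 led in eosinophils by this length. Psma7 stood at 137 ± 10.1 in eosinophils with ILC2s and 139 ± 14.6 in eosinophils alone, and Psmb3 at 136 ± 3.45 with ILC2s and 139 ± 13.3 alone. These 2 did not differ beyond their spread in either eosinophil group. Psme1 ranked second in both ILC2 groups, at 155 ± 1.40 in ILC2s with eosinophils and 119.8 ± 9.20 in ILC2s alone, and in ILC2s alone it did not differ from Psmb8 beyond their spread. Among the peptidases of ILC2s alone the order was Psmb8, Psmb9 (64.1 ± 1.11), Psmb10 (58.6 ± 3.43), Psmb6 (51.7 ± 2.88), Psmb5 (36.4 ± 4.07) and Psmb7 (35.7 ± 1.60). In ILC2s with eosinophils it was Psmb8, Psmb6 (90.5 ± 3.11), Psmb9 (89.8 ± 1.52), Psmb7 (84.3 ± 3.44), Psmb5 (75.6 ± 3.22) and Psmb10 (55.5 ± 1.99), in which Psmb6 and Psmb9 did not differ beyond their spread. In ILC2s alone Psmb5 and Psmb7 did not differ beyond theirs. With the length of all annotated exons, Psmb5 led in eosinophils, at 109 CPM per kilobase with ILC2s and 117 alone, and Psma6 came next at 94.9 and 89.7, while Psma7 stood at 40.7 and 41.5 and Psmb3 at 45.4 and 46.2. By that length Psmb8 led in ILC2s with eosinophils (91.8), and in ILC2s alone Psme1 (60.3) stood just above it (59.6). The peptidases then ran Psmb8, Psmb5 (75.6), Psmb10 (42.7), Psmb6 (38.6), Psmb9 (33.2) and Psmb7 (28.6) in ILC2s with eosinophils, and Psmb8, Psmb10 (45.1), Psmb5 (36.4), Psmb9 (23.7), Psmb6 (22.04) and Psmb7 (12.1) in ILC2s alone. Psmb8 was the highest peptidase in both ILC2 groups by either length, and the other places moved except that of Psmb7 in ILC2s alone. Psmb7 had the lowest mean there by either length, although by principal transcript not beyond the spread from Psmb5.

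Accessory genes of the proteasome pathway came from 3 lists made with these results partly known. Of 22 accessory and regulatory genes, 10 were higher and 7 lower in ILC2s with eosinophils, 45.5% and 31.8% against 36.8% and 35.6% of all genes, with a median log2 fold change of 0.13. Pomp had 101, 99.3 and 102 CPM in ILC2s with eosinophils, against 38.4, 33.1 and 37.0 CPM in ILC2s alone (1.47 ± 0.052, adjusted p = 2.2e-20). Uchl5, a deubiquitinase of the 19S particle, had 62.2, 53.0 and 56.2 CPM in ILC2s with eosinophils, against 23.0, 22.9 and 24.2 CPM in ILC2s alone (1.28 ± 0.065). Nfe2l2, the regulator of the antioxidant response, had 33.5, 33.6 and 36.1 CPM in ILC2s with eosinophils, against 73.5, 67.4 and 70.3 CPM in ILC2s alone (-1.04 ± 0.055, adjusted p = 3.0e-16). These 3 stood apart between groups, Nfe2l2 in the opposite direction to the others. Nfe2l1 was higher, with 155, 150.2 and 149 CPM in ILC2s with eosinophils, against 127, 119 and 117 CPM in ILC2s alone (0.31 ± 0.041). Ddi2, the protease that activates the Nfe2l1 product, had 73.2, 67.2 and 68.8 CPM in ILC2s with eosinophils, against 93.1, 95.7 and 93.6 CPM in ILC2s alone (-0.44 ± 0.045). Sem1, a small lid subunit, rose (0.89 ± 0.062), whereas Adrm1, a ubiquitin receptor named after its values were seen, stood at 0.11 (adjusted p = 0.052).

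**Figure D5:**
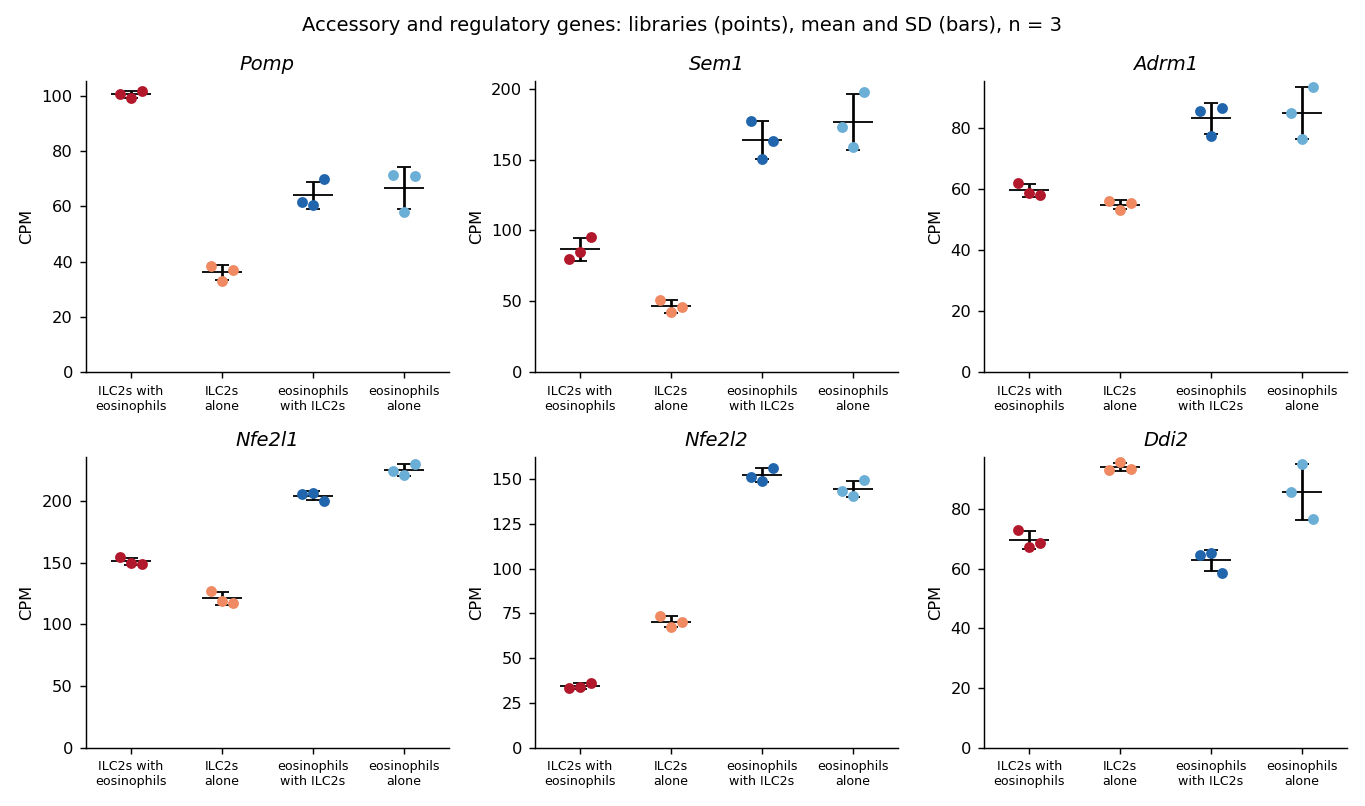
CPM (vertical axes from 0, TMM scaled) of 6 accessory and regulatory genes, with 1 point per library, the mean as a line and the SD as bars (n = 3). Pomp and Sem1 are higher and Nfe2l2 and Ddi2 lower in ILC2s with eosinophils than in ILC2s alone.

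In eosinophils 2 of the 22 accessory genes were higher with ILC2s and 3 lower, against 11.4% and 13.5% of all genes, with a median of -0.030. Zfand5, an activator of the 26S proteasome, had 126, 136 and 135 CPM in eosinophils with ILC2s, against 176, 167 and 162 CPM in eosinophils alone (-0.38 ± 0.062, adjusted p = 0.00046). Ddi2 had 64.7, 65.1 and 58.6 CPM in eosinophils with ILC2s, against 85.7, 95.2 and 76.6 CPM in eosinophils alone (-0.48 ± 0.086, adjusted p = 0.001). Uchl5 had 41.2, 42.6 and 44.3 CPM in eosinophils with ILC2s, against 32.2, 34.4 and 34.3 CPM in eosinophils alone (0.31 ± 0.075, adjusted p = 0.0073). All 3 stood apart between groups. Nfe2l1 was also lower (-0.17 ± 0.053) and Fbxo7, which binds the Psmf1 product, also higher (0.30 ± 0.084), although Fbxo7 lost the call without replicate 1 of eosinophils alone or any 1 library of eosinophils with ILC2s (adjusted p 0.0548 to 0.0626).

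Ubiquitin genes and the p97 unfoldase upstream of the proteasome gave 6 higher and 2 lower of 11 in ILC2s with eosinophils, and 3 higher and 1 lower in eosinophils with ILC2s, with medians of 0.18 and 0.14. In ILC2s these were 54.5% and 18.2% of the list, against 36.8% and 35.6% of all genes, and in eosinophils 27.3% and 9.09%, against 11.4% and 13.5% of all genes. Vcp, which encodes p97, had 391, 375 and 379 CPM in ILC2s with eosinophils, against 257, 234 and 239.6 CPM in ILC2s alone (0.64 ± 0.040). It had 310.2, 299 and 309 CPM in eosinophils with ILC2s, against 252, 250.4 and 260.3 CPM in eosinophils alone (0.24 ± 0.052, adjusted p = 0.0045). Uba1, which starts ubiquitin transfer, was higher by 0.65 in ILC2s and 0.21 in eosinophils on the log2 scale. In eosinophils it lost the call without replicate 1 of eosinophils alone (adjusted p = 0.0588) or replicate 3 of eosinophils with ILC2s (0.054). Of the ubiquitin genes, Rps27a (0.67) and Ubb (0.28) were higher in ILC2s with eosinophils.

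Class I antigen processing, which uses the peptides of the proteasome, gave 7 genes higher and 4 lower of 15 in ILC2s with eosinophils, and 7 higher and 0 lower in eosinophils with ILC2s, with medians of -0.011 and 0.12. In ILC2s these were 46.7% and 26.7% of the list, against 36.8% and 35.6% of all genes, and in eosinophils 46.7% and 0%, against 11.4% and 13.5% of all genes. Those that rose in ILC2s included the chaperones of class I folding Calr (1.83 ± 0.044), Canx (1.09 ± 0.037) and Pdia3 (0.82 ± 0.037) and the light chain gene B2m (0.74 ± 0.034). Irf1, a transcription factor of the interferon response, was lower there (-0.78 ± 0.040). Tapbpl averaged 22.1 CPM in ILC2s with eosinophils and 47.2 CPM in ILC2s alone, and H2-K1 4202 and 4211 CPM. In eosinophils Irf1 was higher with ILC2s (0.23 ± 0.073, adjusted p = 0.038). Its difference of responses was negative, at -1.02 ± 0.087 (adjusted p = 6.9e-10). In that term 5 of the 15 class I genes were positive and 6 negative, 33.3% and 40.0%, against 26.8% and 24.8% of all genes. Erap1, which trims class I peptides, did not pass in ILC2s (-0.048) and was higher in eosinophils with ILC2s (0.45 ± 0.082).

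Some members share exon sequence with other genes, and the strand setting of the counting is not given in the sources used here. Psmb7 (chr2:38588036-38644087, minus strand, GRCm38) overlaps Nek6 on the opposite strand over 11.8% of its exon length, and Nek6 had log2 fold changes of 1.39 ± 0.098 in ILC2s with eosinophils and -0.73 ± 0.058 in eosinophils with ILC2s, each against the same cells alone. Psmb7 itself had log2 fold changes of 1.23 and -0.036 in these comparisons. Psmb9 (chr17:34181987-34187764, minus strand) overlaps Tap1 over 5.79%, and Psmc3ip (chr11:101091823-101095436, minus strand) overlaps Mlx over 21.2%, where Mlx changed by 0.33 in ILC2s with eosinophils. Psmb8 (chr17:34197721-34201454, plus strand) overlaps the antisense gene Gm20496, which held 536 counts against 49468 for Psmb8 over all libraries. The 4 annotated pseudogenes of the family in the table held 3 to 7 counts in all.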

How the data were processed

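The authors deposited raw counts of reads per gene for 12 libraries. Per the submitters' processing notes, the tools were STAR 2.5.2b, featureCounts and Subread 1.5.2, with Trimmomatic 0.36 and bcl2fastq 2.17, and the build was mm10. Whether reads were counted by strand, and how reads with several matches were treated, is not given in the sources used here. Of the 49315 identifiers, 49056 matched GENCODE M21, which gave names, types and lengths. Samples were grouped by the treatment and cell type labels. Genes passing filterByExpr were tested with edgeR 4.0.16 (quasi-likelihood F test, TMM scaling, R 4.3.3) in the 6 libraries of each comparison, or in all 12 for the difference of responses, and p-values were adjusted over all genes tested by Benjamini-Hochberg with a threshold of 0.05. Errors of log2 fold changes are standard errors. Alternatives were DESeq2 1.42.0, its size factors in edgeR, library totals, no filter, all 12 libraries, a replicate block and single libraries left out. The immune share by all exons was added after seeing the data. Tables and plots used Python 3.11.15, pandas 2.3.3 and matplotlib 3.10.9. The fits were tested on simulated data. Members and lists were chosen with earlier results of these data known. Every member could be named, and the 4 genes of smallest p per other list and comparison were named and are also given in other comparisons, except that some of them are not reported here. Counts of 0 allow up to 3 counts per library, a limit of counting error only.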

Additional observations from a re-analysis of the deposited data

Results flagged for a closer look

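The response to coculture differed between cell types for 42 of 48 members by the interaction term of edgeR over all 12 libraries, where it differed for 51.5% of all 15745 genes. Each value below is the ILC2 log2 fold change minus the eosinophil one. In the alpha ring it was 1.29 for Psma2, 1.22 for Psma5, 0.96 for Psma3, 0.83 for Psma4, 0.71 for Psma7, 0.67 for Psma6 and 0.55 for Psma1. Among the structural beta subunits it was 1.00 for Psmb2, 0.87 for Psmb3, 0.83 for Psmb4 and 0.29 for Psmb1. The constitutive peptidases Psmb7, Psmb5 and Psmb6 stood at 1.25, 1.16 and 0.80. The immune peptidases Psmb8 and Psmb9 stood at 0.70 and 0.46 and Psmb10 at -0.48, and Psmb10 was the only peptidase with a negative value.

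For the ATPases it was 1.29 for Psmc5, 1.18 for Psmc6, 0.83 for Psmc1, 0.65 for Psmc4, 0.57 for Psmc3 and 0.56 for Psmc2. For the other 19S subunits it was 1.34 for Psmd14, 1.12 for Psmd1, 0.98 for Psmd3, 0.91 for Psmd12, 0.80 for Psmd13, 0.80 for Psmd8, 0.71 for Psmd2, 0.70 for Psmd6 and 0.62 for Psmd7. The assembly chaperones gave 0.70 for Psmd10, 0.55 for Psmd9, 0.80 for Psmg1 and 0.71 for Psmg3. Among the activators it was 0.49 for Psme2, 0.36 for Psme3, 0.35 for Psme1, -0.26 for Psme4 and -0.83 for Psme2b. Psmc3ip, which encodes no proteasome part, had the largest value of the 42, 3.31.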

How the results depend on the processing

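Of 3900 log2 fold changes recomputed under alternatives, 142 changed call or direction, 60 of them with library totals. A change of direction was counted only where the main fit or the alternative passed. All 28 reversals came with library totals. Of these, Psma1, Psmd3, Psmd6 and Psmd9 alone, and Psma6 and Psmd13 in coculture, did not pass with library totals. Psmd4 in the ILC2 response and Psmc3, Psmd7 and Psme1 alone had not passed in the main fit. Neither had Psma2, Psma7, Psmb6, Psmc4, Psmd5 and Psmd11 in coculture. In ILC2s with eosinophils against ILC2s alone, Psmd4 became -0.12. In ILC2s alone against eosinophils alone, the reversed values were 0.28 (Psmd5), 0.43 (Psmc3), 0.16 (Psmd9), 0.25 (Psmd8), 0.12 (Psma1), 0.41 (Psmd7), 0.076 (Psmd6), 0.46 (Psme1), 0.36 (Psme2), 0.28 (Psma4), 0.33 (Psme4), 0.38 (Psmd11), 0.13 (Psmd3), 0.36 (Psmd12) and 0.18 (Psmd2). In ILC2s with eosinophils against eosinophils with ILC2s, they were 0.31 (Psmd5), 0.33 (Psma7), 0.17 (Psmd10), 0.14 (Psmc2), 0.37 (Psmc4), 0.096 (Psmd13), 0.14 (Psmb10), 0.32 (Psmb6), 0.38 (Psmd11), 0.19 (Psmb3), 0.32 (Psma2) and 0.094 (Psma6). The cause was not tested. With library totals, members lower numbered 5 in the ILC2 response and 0 in the eosinophil response, members higher and lower between cell types numbered 20 and 16 alone and 42 and 3 in coculture, and 3664 of all genes were lower in ILC2s alone. Without the filter the eosinophil response had 1 member higher and 0 lower. With all 12 libraries in the fit, 2276 genes were higher in eosinophils with ILC2s, against 1493 in the main comparison.

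Leaving out single libraries gave 0 to 2 members higher, 0 to 3 lower and 948 to 1604 genes higher in the eosinophil response, the fewest without replicate 3 of eosinophils with ILC2s. It gave 1 to 2 members lower in the ILC2 response, 2 without replicate 2 of ILC2s alone, 42 to 43 higher there, and 39 to 41 positive differences. Between cell types it gave 5 to 6 members higher and 32 to 38 lower alone, and 23 to 25 higher and 8 to 12 lower in coculture. Whether the replicate numbers pair the libraries is not known. The 12 correlations of same-numbered deviations ran from -0.0176 to 0.0967, and those of differently numbered libraries from -0.0867 to 0.066. Such correlations, over deviations from means of 3 libraries, cannot decide it. With a replicate block 2029 genes were higher and 2139 lower in the eosinophil response, against 1493 and 1771 in the main comparison. With a replicate block the ILC2 response kept 43 members higher and 1 lower, the eosinophil response had 3 higher and 2 lower, with Psme4 (0.19, adjusted p = 0.00847) added as higher and Psmc5 (-0.18, adjusted p = 0.0284) as lower, and the difference of responses 40 positive and 3 negative. Depth limits the members of few counts, Psma8 and Psmb11 most.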
